A study of Mus musculus with 2 samples.

Results

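The dual-specificity MAP kinase phosphatases are described here by 10 mouse genes, Dusp1, Dusp2, Dusp3, Dusp4, Dusp5, Dusp6, Dusp7, Dusp8, Dusp10 and Dusp16. They were taken by gene symbol from the 55536 annotated genes of the deposited gene tables, together with their 36 annotated transcripts, and all 10 were found. The cells were macrophages grown from the bone marrow of C57BL/6J mice, held as primary cells. All of them met lipid A, the TLR4 ligand within lipopolysaccharide of bacteria, in 2 exposures of 100 ng/ml. The first lasted 12 h and was followed by washing and 12 h without it, and the second lasted 75 min. Total RNA-seq was then made from 1 µg of cytosolic RNA per library after depletion of ribosomal RNA. There is 1 group with 2 biological replicates, which differ in biosample record and share 1 donor code. Nothing in the labels says that they came from separate animals or cultures, so a difference between these 2 libraries may be technical. P-values between them set that difference against counting error or an assumed variation, and do not measure biological spread. Cells without lipid A, or with 1 exposure, were not analysed here, and no value below measures induction.

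MAP kinases (ERK, JNK and p38) carry the signal from TLR4 to transcription and to cytokine messages, and they are active only while a threonine and a tyrosine of their activation loop are phosphorylated. Dual-specificity phosphatases remove both phosphates. Many of the family are themselves transcribed when MAP kinases are active, which makes them a negative feedback, and Dusp1 is known for restraining p38 and JNK and the output of inflammatory cytokines in macrophages. The members differ in where they act and on what. Dusp1, Dusp2, Dusp4 and Dusp5 are the inducible nuclear enzymes, Dusp6 and Dusp7 act on ERK in the cytoplasm, Dusp8, Dusp10 and Dusp16 prefer JNK and p38, and Dusp3 is a small atypical enzyme without the kinase-binding domain of the others.

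The promoters of 4 members are shown because they hold the sequence elements through which stimulus-responsive factors are known to act: the cAMP response element (CRE, bound by CREB and ATF proteins), the CArG box (bound by serum response factor) and the EGR element. Promoter windows of RefSeq on GRCm38.p6, running from 250 bases before to 50 bases after the gene's start, were found for 9 of the 10 members, all but Dusp4, and for 32851 windows in all. Each line gives 160 bases that end before the start of the leading transcript, 5′ to 3′, with positions counted from the RefSeq start and the matching elements in capitals.

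Dusp1 promoter, chr17:26508520-26508679, minus strand, bases -207 to -48: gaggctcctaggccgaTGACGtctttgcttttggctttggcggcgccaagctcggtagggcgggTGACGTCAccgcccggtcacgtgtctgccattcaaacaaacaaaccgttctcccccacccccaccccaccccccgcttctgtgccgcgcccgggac

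Dusp5 promoter, chr19:53528949-53529108, plus strand, bases -196 to -37: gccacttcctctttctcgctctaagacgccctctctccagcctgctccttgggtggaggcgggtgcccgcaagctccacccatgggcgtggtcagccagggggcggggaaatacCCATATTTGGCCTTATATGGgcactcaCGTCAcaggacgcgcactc

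Dusp2 promoter, chr2:127335999-127336158, plus strand, bases -160 to -1: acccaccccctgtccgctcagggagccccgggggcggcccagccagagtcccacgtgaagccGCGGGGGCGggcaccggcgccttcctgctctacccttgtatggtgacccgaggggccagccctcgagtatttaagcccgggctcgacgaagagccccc

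Dusp8 promoter, chr7:142095285-142095444, minus strand, bases -160 to -1: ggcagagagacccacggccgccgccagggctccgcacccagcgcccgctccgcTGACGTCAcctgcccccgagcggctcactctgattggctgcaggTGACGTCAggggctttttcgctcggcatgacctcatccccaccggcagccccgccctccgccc

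On both strands, the full CRE TGACGTCA occurred in 2 of the 9 windows, at -143 to -136 in Dusp1 and at -107 to -100 and -63 to -56 in Dusp8. It occurred in 1.79% of all windows and in 2.31% of those of protein-coding genes. The half-site TGACG, which lies inside the full element and was also counted alone, occurred in 5 of 9 (Dusp1, Dusp2, Dusp5, Dusp8 and Dusp16), against 20.8% of all windows. Among windows of protein-coding genes its share was 24.2%. In Dusp2 the half-site lay at 6 to 10, after the start and outside the line shown. Dusp5 held 2 CArG boxes side by side, at -82 to -73 and -72 to -63. A CArG box was present in 1.63% of all windows and in 1.51% of those of protein-coding genes. The EGR element GCGNGGGCG was found in Dusp2, at -98 to -90, and in Dusp16. Its share was 5.55% of all windows and 7.81% of those of protein-coding genes. No window of the 9 held the AP-1 element TGANTCA (7.81% of all windows), the kappaB element (8.46%) or TATAAA (13.6%). These matches describe letters in a fixed window. The window of Dusp8, with 2 CREs, belongs to a gene at a mean level of 1.45 TPM, the length-corrected share of a gene in its whole library, and that of Dusp1, with 1, to a gene at 109 TPM.

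The other sequence feature shown is the AU-rich nonamer TTATTTATT, the core of the element to which tristetraprolin (Zfp36) and related proteins bind in short-lived messages. It was searched on the sense strand after the stop codon of each member's leading transcript (GENCODE M21, GRCm38) and occurred in 2 of 10 members, at 2 places in Dusp1 and at 1 in Dusp8. Each line gives a site with its flanks, 5′ to 3′, with the nonamer in capitals.

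Dusp1 site, chr17:26506159-26506187, minus strand, nonamer from base 103 after the stop codon: gagctggtccTTATTTATTtaacaccccc

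Dusp1 site, chr17:26505870-26505898, minus strand, nonamer from base 392 after the stop codon: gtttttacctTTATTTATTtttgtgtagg

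Dusp8 site, chr7:142081715-142081743, minus strand, nonamer from base 127 after the stop codon: tttcgattttTTATTTATTtaagctagtg

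Among 8674 detected protein-coding genes with a 3′ untranslated region, 6.63% held a nonamer. By length of that region the share was 5.58% from 500 to under 1500 bases, where Dusp1 lies with 690, and 11.1% from 1500 to under 4000 bases, where Dusp8 lies with 2370. The shorter pentamer ATTTA occurred 4 times in the 690 bases of Dusp1, which is 5.80 per kb, and 4 times in the 581 bases of Dusp2, which is 6.88 per kb. The median of those 8674 genes was 1.27 per kb. Dusp7 had none in 1778 bases, and the other 7 members had between 0.841 (Dusp6) and 2.70 per kb (Dusp10).

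The gene level is given in TPM as deposited, and gene coordinates are those of GENCODE M21 on mm10 (GRCm38). A level of at least 1 TPM in both replicates is called detected, 10 to under 100 moderate and at least 100 high, and a gene whose replicates fall in different bands is put in the lower one. Annotated genes took 64187219 expected counts in replicate 1 and 49429864 in replicate 2. Protein-coding genes held 29.9% and 26.2% of all TPM, so that each level here is lower than it would be among messenger RNAs alone. Of 9 macrophage genes 7 were high and 2 moderate, led by Lyz2 (lysozyme) at 3014 ± 143 TPM (SD, n = 2), and Itgam, an integrin chain, was the lowest at 30.8 ± 9.08. Of 13 genes of other blood and stromal lineages 12 were under 1 TPM, Ly6g at 0, and the exception was Pf4, a platelet gene that macrophages also express, at 79.8 ± 11.9. In bulk RNA, fewer cells with a message and less of it per cell cannot be told apart.

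Of the 10 phosphatase genes 9 were detected: 3 were moderate, 6 low and none high, while Dusp10 stayed under 1 TPM. The median member stood at 7.41 ± 3.76 TPM (n = 2), against 0.115 ± 0.00707 over 22028 protein-coding genes. Detection was 90.0% of the members, 40.0% of protein-coding genes and 16.7% of all annotated genes. Their summed level was 270 TPM in replicate 1 and 148 TPM in replicate 2.

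**Figure D1:**
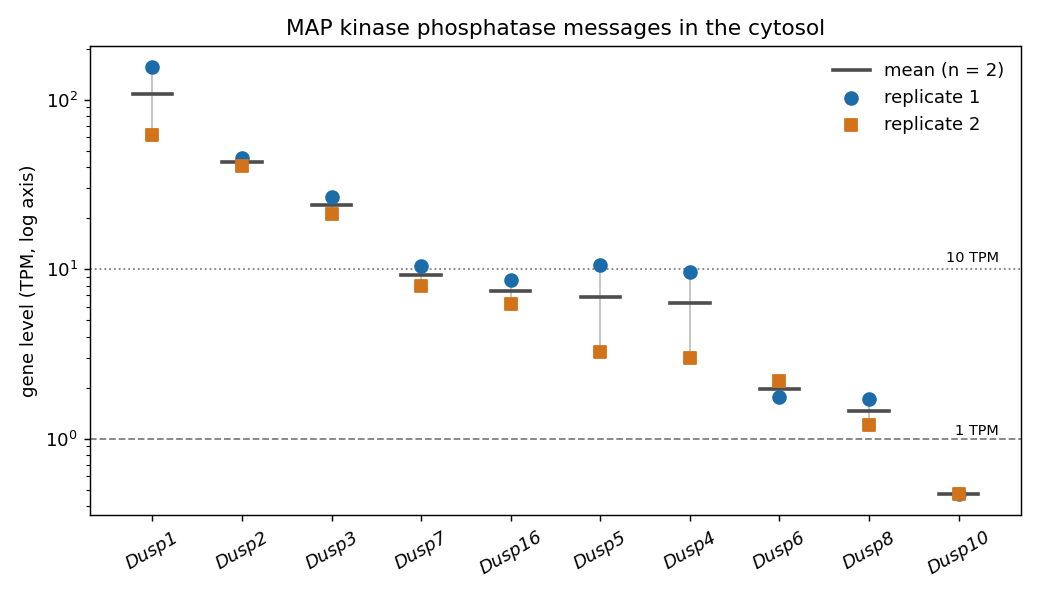
Level of each phosphatase gene in TPM on a log axis, ordered by mean. Circles are replicate 1, squares replicate 2 and bars the mean of both. Dusp1 leads in both libraries, Dusp10 lies under the 1 TPM line in both, and the gap between the points is wide for Dusp1, Dusp5 and Dusp4.

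The inducible nuclear enzymes held most of the members' summed level, chiefly through Dusp1 and Dusp2, while Dusp4 and Dusp5 were low. Dusp1, Dusp2, Dusp4 and Dusp5 together made up 81.6% of the members' summed TPM in replicate 1 and 73.4% in replicate 2. Dusp1 (chr17:26505590-26562128, minus strand), which acts on p38, JNK and ERK, was at 155 TPM in replicate 1 and 62.1 TPM in replicate 2, or 109 ± 66.0 (SD, n = 2), behind 28926 and 9584 expected counts. It was the highest member in both libraries, above 98.2% of protein-coding genes by mean level, and was banded as moderate because replicate 2 was under 100. By itself it made up 57.5% and 41.9% of the summed level. Dusp2 (chr2:127336159-127338376, plus strand), known from activated lymphoid and myeloid cells, had 45.0 TPM in replicate 1 and 40.4 TPM in replicate 2, a mean of 42.7 ± 3.25. It came next in both libraries, and its replicates lay closer together than those of Dusp1.

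Dusp5 (chr19:53529109-53542431, plus strand), which is specific for ERK and holds it in the nucleus, had 10.5 TPM in replicate 1 and 3.25 TPM in replicate 2. Dusp4 (chr8:34807297-34819894, plus strand), a close relative of Dusp1, had 9.67 TPM in replicate 1 and 2.98 TPM in replicate 2. Their means of 6.88 ± 5.13 and 6.33 ± 4.73 (n = 2) stand beside each other in the order, and in each the level of replicate 1 was the higher.

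The ERK phosphatases of the cytoplasm were low. Dusp7 (chr9:106368632-106375724, plus strand) had 10.5 TPM in replicate 1 and 8 TPM in replicate 2. Dusp6 (chr10:99263231-99267489, plus strand), the best known feedback inhibitor of ERK, had 1.75 TPM in replicate 1 and 2.18 TPM in replicate 2. The pair held 4.52% and 6.88% of the members' summed level, and Dusp6 was the only member of the 10 with the higher TPM in replicate 2.

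Of the enzymes that prefer JNK and p38, Dusp16 (chr6:134715468-134792625, minus strand) led with 8.68 TPM in replicate 1 and 6.26 TPM in replicate 2. Dusp8 (chr7:142079490-142095843, minus strand) had 1.70 TPM in replicate 1 and 1.20 TPM in replicate 2. Dusp10 (chr1:184013302-184075636, plus strand) was at 0.47 TPM in both libraries. Its expected counts were 135 and 110, so that the message was counted but lay under the detection level. The 3 genes held 4.01% and 5.36% of the summed level.

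Dusp3 (chr11:101971143-101987013, minus strand), also called VHR, which acts on ERK and JNK, had 26.8 TPM in replicate 1 and 21.3 TPM in replicate 2, and ranked behind Dusp1 and Dusp2 in both libraries. It shared 604 exonic bases with Gm20659, an antisense gene listed at 8.47 TPM in replicate 1 and 5.67 TPM in replicate 2. Whether reads were counted by strand is not stated, and without it reads of the pair cannot be told apart. Smaller overlaps on the opposite strand were 547 bases for Dusp5 with AC137853.2, at 0.03 and 0.04 TPM, 66 bases for Dusp8 with Gm32786, at 0 in both, and 11 bases for Dusp1 with Ergic1.

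In the order by mean, Dusp1, Dusp2, Dusp3, Dusp7, Dusp16, Dusp5, Dusp4, Dusp6, Dusp8 and Dusp10, 6 of the 9 neighbouring pairs had ranges that did not overlap. The pairs Dusp7 and Dusp16, Dusp16 and Dusp5, and Dusp5 and Dusp4 overlapped, so the order of these 4 genes is not resolved by 2 libraries. Replicate 2 gave the order of the means, while in replicate 1 the 4 genes ran Dusp5, Dusp7, Dusp4 and Dusp16. The highest mean was 231 times the lowest. In the second kind of table, in which transcripts were estimated from the reads, the order differed by 1 exchange, Dusp8 standing above Dusp6. Every member's mean was lower in that table. In that table Dusp1 had 82.9 TPM in replicate 1 and 25.7 TPM in replicate 2, and the means were 21.2 ± 5.76 TPM for Dusp2, 12.1 ± 4.63 for Dusp3 and 4.56 ± 1.71 for Dusp7 (SD, n = 2).

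The 5 protein-coding genes whose levels were nearest to those of Dusp1 over the 2 libraries, by distance in log2(TPM + 1), were Ddit3, Bcl2a1d, Rpl35, Psmd8 and Rps7. Ddit3, a transcription factor of the stress response, lay at a distance of 0.324 with 139 TPM in replicate 1 and 75.7 TPM in replicate 2. Bcl2a1d, a survival factor of the Bcl2 family, was at 0.339 with 163 TPM and 78.3 TPM in the same order. The other 3, of the ribosome and the proteasome, lay at 0.367 to 0.428. All 5 were higher in replicate 1, as Dusp1 was, and the choice by distance to Dusp1 over both libraries fixes this.

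The 2 replicates received the same treatment, so the comparison of one with the other gives the spread of each level between like libraries. Expected counts were scaled by TMM, and an exact binomial test was run on the 13298 genes with a mean count of at least 10. It compares these 2 libraries and holds counting error only. At an adjusted p of at most 0.05 and at least 2-fold, 3 of the 10 members were called, all 3 higher in replicate 1. Of all genes tested 5.53% were called in either direction and 2.52% were called higher in replicate 1. Among the 8811 detected protein-coding genes tested, 0.783% were called higher in replicate 1. All 10 members passed the filter on low counts, which uses the mean of both libraries.

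Dusp4 had 2733 expected counts in replicate 1 and 691 in replicate 2, a log2 ratio of scaled counts, replicate 1 over replicate 2, of 1.61 (95% interval 1.49 to 1.73, counting error only; 3.04-fold; adjusted p = 4.78e-180, exact binomial test). Dusp5 had 2656 expected counts in replicate 1 and 674 in replicate 2, a log2 ratio of 1.60 (1.48 to 1.73; 3.03-fold; adjusted p = 3.57e-174, exact binomial test). Dusp1 had a log2 ratio of 1.22 (1.18 to 1.25; 2.32-fold), with an adjusted p by the same exact test too small to be stored as a number. The 3 called members are thus all inducible nuclear enzymes. The remaining one of that class, Dusp2, had a log2 ratio of 0.09 (0.03 to 0.14) and was not called.

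The other 6 members were not called at 2-fold either. Dusp16, Dusp8, Dusp3 and Dusp7 had log2 ratios of 0.41, 0.39, 0.36 and 0.29, and Dusp10 and Dusp6 of -0.08 and -0.40. The median over the 10 members was 0.38, against 0.04 over all genes tested. A ratio above 0 was found in 8 of 10 members and in 7218 of the 13298 genes tested. When a biological coefficient of variation of 0.2 was assumed in edgeR's exact test, 0.361% of all genes were called higher in replicate 1. Dusp4 (adjusted p = 0.0197) and Dusp5 (adjusted p = 0.0207) were then called and Dusp1 (adjusted p = 0.190) was not. With 1 library on each side, that value is an assumption. The common value of 0.199 estimated from these libraries comes from the same differences that are tested, so no independent measure of spread stands behind the calls.

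**Figure D2:**
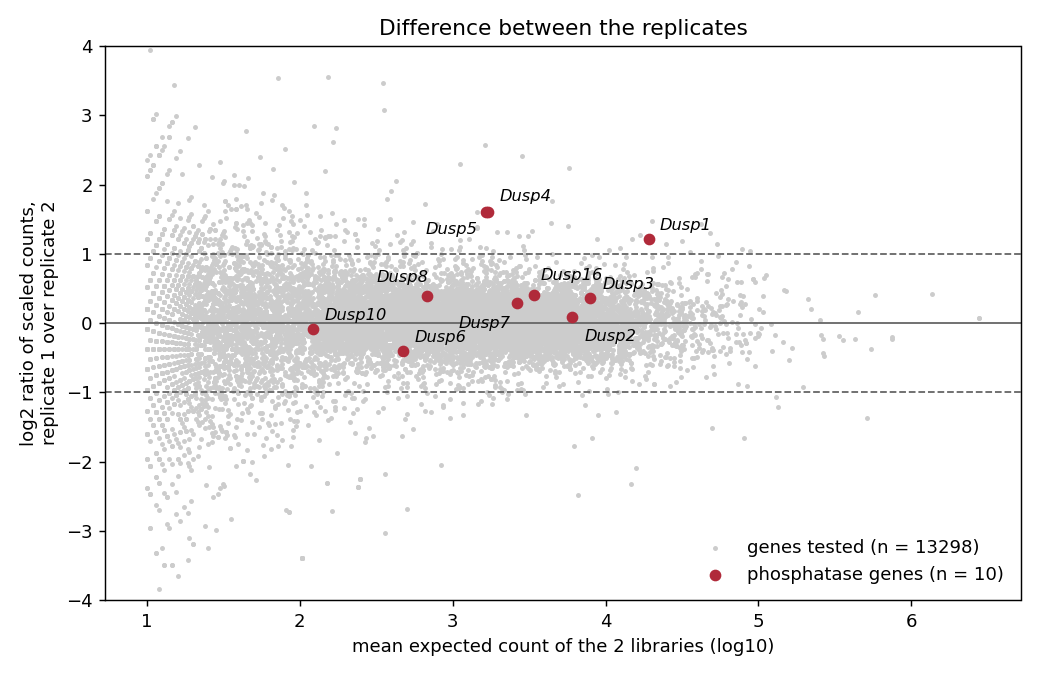
Log2 ratio of scaled counts, replicate 1 over replicate 2, against the mean expected count on a log10 scale. Grey points are the 13298 genes tested (12 lie outside the plotted range), red points the 10 phosphatase genes, and dashed lines mark 2-fold. Dusp4, Dusp5 and Dusp1 lie above the upper dashed line at 1.61, 1.60 and 1.22, and the other 7 lie between the lines.

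Genes outside the family also differed between the libraries. Of 16 immediate early genes, the transcription factors and RNA-binding proteins switched on within minutes of a stimulus, 15 could be tested. All 15 had a ratio above 0, against 7218 of the 13298 genes tested. Their median log2 ratio was 0.75, and 4 were called, each higher in replicate 1. They were Fosb at 3.08, Fos at 1.44, Egr2 at 1.41 and Egr1, the factor that binds the EGR element, at 1.14. Zfp36, which binds AU-rich messages, was at 0.82 and was not called. At an assumed coefficient of variation of 0.2 in edgeR's exact test Fosb stayed called, while Fos (adjusted p = 0.0545), Egr2 (adjusted p = 0.0678) and Egr1 (adjusted p = 0.266) did not.

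Malat1, a noncoding RNA retained in the nucleus, had 132 TPM in replicate 1 and 384 TPM in replicate 2, a log2 ratio of -1.66. Neat1, a noncoding RNA of nuclear paraspeckles, had 7.96 TPM in replicate 1 and 29.7 TPM in replicate 2, a log2 ratio of -1.77. Malat1 and Neat1 were called lower in replicate 1, also by edgeR's exact test at an assumed coefficient of variation of 0.2. Xist, the last of the 3 nuclear RNAs listed, had 1.62 TPM in replicate 1 and 1.27 TPM in replicate 2, a log2 ratio of 0.52, and was not called. Together the 3 stood at 142 TPM in replicate 1 and 415 TPM in replicate 2. The library with the higher Dusp1, Dusp4 and Dusp5 was thus the one with the lower Malat1 and Neat1 and the greater depth, and the part of these differences in the members' ratios was not tested. Macrophage genes had a median log2 ratio of -0.41, with 1 of 9 called, Adgre1 (F4/80), at -1.07. Of the genes of other lineages 2 could be tested and 1 was called, Pecam1, an endothelial adhesion molecule, at -1.04. Neither was called by edgeR's exact test at 0.2 (adjusted p = 0.351 for Adgre1 and 0.540 for Pecam1). Among 8811 detected protein-coding genes 98.8% lay within 2-fold.

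The transcript tables divide each gene's level among its annotated transcripts, as a percent of the gene's TPM. Of the 36 transcripts of the members 24 are annotated as protein-coding, 4 as retained intron, 2 as subject to nonsense-mediated decay and 6 as other processed transcripts. The alignment-based table gave a level to 26 of them. The leading transcript was the same in both kinds of table for 10 of 10 members, and Dusp4 and Dusp5 have 1 transcript each. Mean shares of the leading transcript ran from 60.7% for Dusp3 to 100% for Dusp4, Dusp5 and Dusp10.

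**Figure D3:**
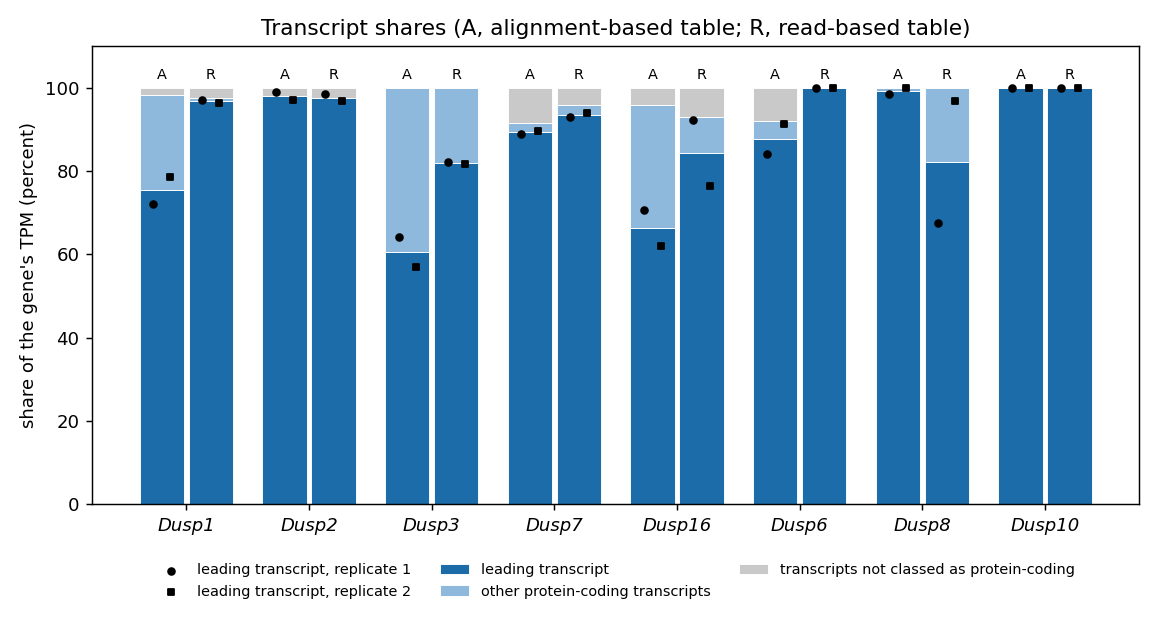
Share of each gene's TPM by transcript, in percent, for the 8 members with more than 1 annotated transcript. Bars are means of both replicates, A from the alignment-based and R from the read-based table, with the leading transcript at the bottom and its replicate values as points. The leading transcripts of Dusp1 and Dusp3 take a larger share in the read-based table, and the 2 replicates of Dusp8 lie apart there.

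Dusp1-202, the full-length message with a coding sequence of 1101 bases, held 72.2% of Dusp1 in replicate 1 and 78.6% in replicate 2 by the alignment-based table. The same transcript held 97.1% in replicate 1 and 96.3% in replicate 2 by the read-based table. The difference fell to Dusp1-206, a shorter protein-coding model with a coding sequence of 522 bases, at 26.3% in replicate 1 and 19.6% in replicate 2 against 0.868% and 0.793% read-based. All 1587 exonic bases of Dusp1-206 lie within Dusp1-202, and it lacks 403 of the bases of that transcript. The first exon of Dusp1-206 ends within that of Dusp1-202, so an exon junction tells them apart. Reads over that junction were not examined here, and the share of Dusp1-206 is not settled by these tables.

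**Figure D4:**
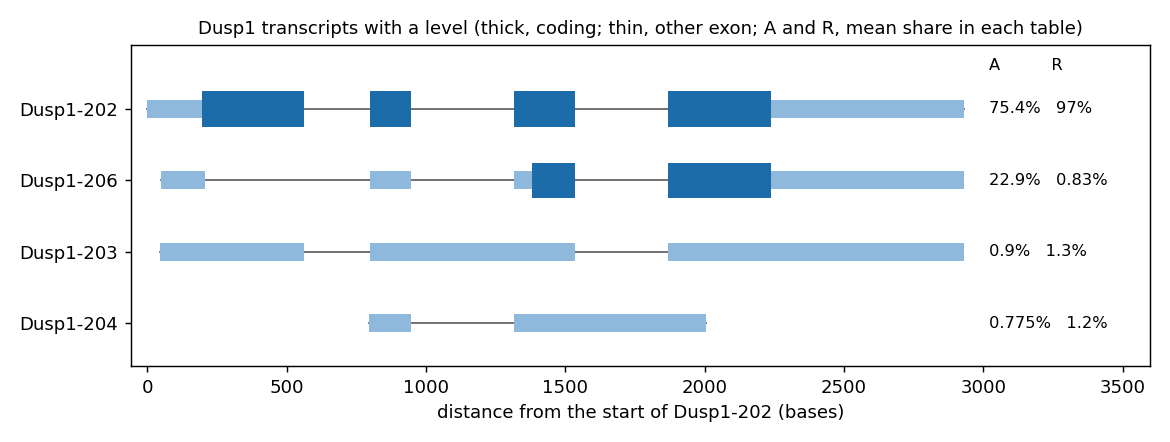
The 4 Dusp1 transcripts with a level, drawn to scale by distance in bases from the start of Dusp1-202. Thick blocks are coding, thin blocks other exon sequence and lines introns, and the percentages are mean shares in the alignment-based (A) and read-based (R) tables. Dusp1-206 lies inside the exons of Dusp1-202, and the retained-intron models Dusp1-203 and Dusp1-204 cover introns of it.

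Messages with a retained intron made up small shares in this cytosolic RNA. For Dusp1 they made up 1.54% of the level in replicate 1 and 1.81% in replicate 2, and for Dusp2 1.08% and 2.86%. Over 5579 detected protein-coding genes with such a model the median was 0.965%, and 61.1% of those genes had a lower share than Dusp1 and 64.3% a lower share than Dusp2.

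The leading transcripts of Dusp3 and Dusp16 also had larger shares in the read-based table. Dusp3-201 held 64.3% in replicate 1 and 57.1% in replicate 2 by the alignment-based table, against 82.1% and 81.6% read-based. Its neighbour Dusp3-206, which shares 4024 bases with it, had 18.0% and 18.3%, against 2.71% and 0.0601% read-based. Dusp16-201 held 70.6% and 62.1%, against 92.3% and 76.3% read-based, and Dusp16-202, whose coding sequence is 1014 bases in place of 1980, took 23.7% and 32.1%. Read-based, Dusp16-202 had 0.000539% in replicate 1 and 12.4% in replicate 2, so that the replicates lay far apart. Transcripts of Dusp16 annotated for nonsense-mediated decay held 4.01% and 4.18% by the alignment-based table. Of its expected counts, which are not corrected for length, they held 0.326% in replicate 1 and 0.788% in replicate 2.

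The remaining members were carried mostly by 1 message each. Dusp2-201 had 98.9% in replicate 1 and 97.1% in replicate 2, and Dusp7-201 had 88.9% and 89.7%. Dusp6-201 had 84.2% and 91.2%, and 100% in both replicates of the read-based table. Dusp8-201 had 98.5% and 100%, but 67.4% and 96.9% of read-based TPM, where its 2 replicates were apart. Of read-based estimated counts, which are not corrected for length, it had 93.9% in replicate 1 and 99.6% in replicate 2.

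Of 13 genes of the MAP kinases themselves 7 were detected in the same RNA. The median over all 13, detected or not, was 3.11 ± 0.488 TPM. Mapk6 (ERK3) was the highest at 50.5 ± 12.5 TPM, followed by Mapk3 (ERK1) at 31.3 ± 7.47, while Mapk4 was at 0. Of the upstream MAP kinase kinases 6 of 7 were detected, led by Map2k1 at 25.9 ± 1.36 and Map2k2 at 25.1 ± 0.757, which phosphorylate ERK, with Map2k6, which phosphorylates p38, lowest at 0.81 ± 0.113. Of 11 kinases one step further up 9 were detected, led by Map3k1 at 18.7 ± 0.750 and Map3k3 at 13.9 ± 0.877, with Map3k6 lowest at 0.46 ± 0.0283. Of these 3 lists 8, 7 and 11 genes could be tested between the replicates, and none was called.

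Downstream, 8 of 10 kinases that MAP kinases activate were detected. Mapkapk2, the p38-dependent kinase that acts on Zfp36, stood at 87.8 ± 12.6 TPM, Mknk2, which phosphorylates a translation factor, at 23.0 ± 2.35, and Rps6ka5 was lowest at 0.635 ± 0.0212. Of the immediate early genes 14 of 16 were detected, and the median over all 16 was 40.1 ± 6.16. They were led by Zfp36 at 334 ± 145 and Klf6, a transcription factor, at 264 ± 93.0, and Fosl1 was lowest at 0.115 ± 0.148. None of the 10 kinases was called between the replicates.

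Further dual-specificity phosphatases, not all of which act on MAP kinases, and other brakes of the pathway were measured beside the members. Of 16 further dual-specificity phosphatase genes 7 were detected and none was moderate. Dusp11, which acts on RNA, led at 6.97 ± 0.629 TPM and Dusp28 followed at 5.36 ± 0.389, with Dusp21 at 0. Of 10 tested 1 was called, Dusp14 (named after its value was seen), with 63 counts in replicate 1 and 11 in replicate 2. Of 7 other phosphatases that act on MAP kinases 5 were detected, led by Ppm1a at 19.2 ± 2.96 and Ppp2ca, the catalytic subunit of PP2A, at 14.9 ± 2.01, with Ptpn5 at 0, and none of the 5 tested was called. Of 7 Sprouty and Spred genes, which restrain the ERK pathway upstream, 2 were detected, Spred1 at 27.2 ± 3.11 and Spred2 at 4.14 ± 1.00, with Spry4 at 0. Of 6 tested 1 was called, Spry1 (named after its value was seen), higher in replicate 1 at a log2 ratio of 1.26, and it was not called by edgeR's exact test at a coefficient of variation of 0.2 (adjusted p = 0.378).

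**Figure D5:**
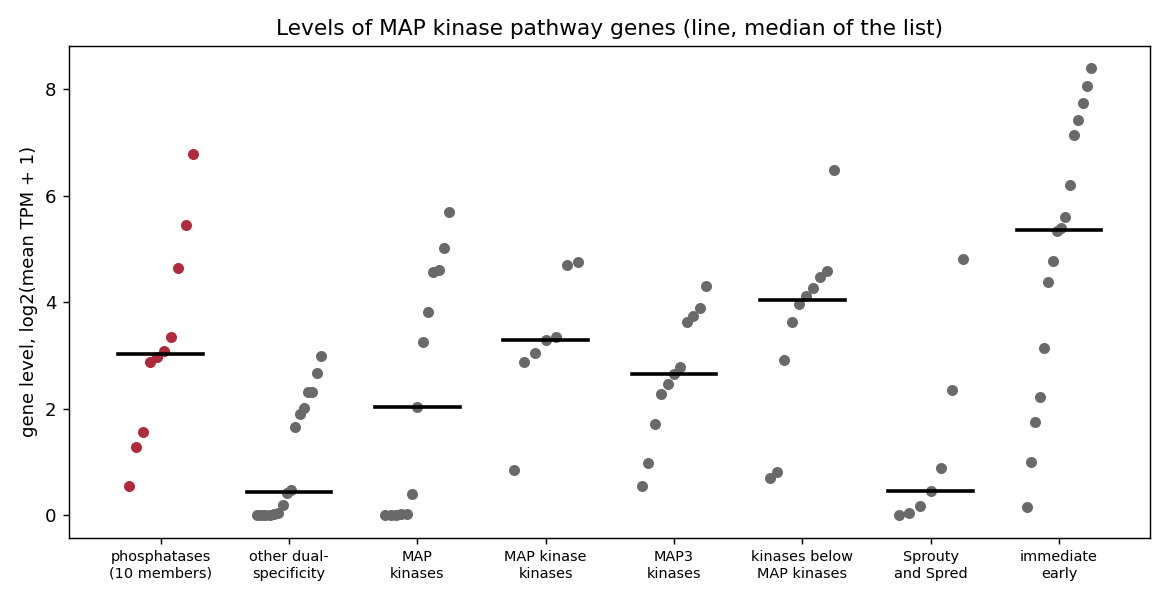
Level of each gene of the pathway lists as log2(mean TPM + 1), with a black line at the median of each list and 1 point per gene. The 10 phosphatase genes (red) have a median near that of the MAP kinase kinases, above that of the other dual-specificity phosphatases and of the Sprouty and Spred genes, and below that of the immediate early genes.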

How the data were processed

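Total RNA of the cytosolic fraction was measured in 2 libraries of 1 group. For each, gene and transcript tables from alignments and a transcript table from reads were used. The labels name mm10, and text deposited beside the tables names the M21 annotation of GENCODE. The aligner, quantifiers and strandedness were not given in the sources used here. The authors deposited expected counts, TPM and, per transcript, the percent of the gene's TPM, per the file headers. The authors' read-based tables hold estimated counts and TPM, summed here over the transcripts of a gene.

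Of 81881 features 26345, transfer RNAs and spike-ins among them, are not annotated genes and were left out of tests and library sizes. A number of annotated genes, 86, have no transcript among the read-based values and were set to 0. Expected counts were rounded, scaled by TMM (edgeR 4.0.16) and compared by a two-sided exact binomial test (scipy 1.17.1) with Benjamini-Hochberg adjustment over all genes whose mean count reached 10. Setting replicate 1 against replicate 2 leaves no residual degrees of freedom for a quasi-likelihood fit, so edgeR's exact test was run with an assumed coefficient of variation of 0.1 or 0.2. The script was tested on simulated data with counting error only, which cannot check the calls against spread between libraries. Size factors of DESeq2 1.42.0 were an alternative. The summed counts of 64187219 and 49429864 give replicate 1 the smaller counting error.

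The members and lists were chosen with earlier results of these data known. Named were the 10 members, the 5 protein-coding genes nearest to the highest member, from each list by mean TPM at most the 2 top genes and the bottom 1, and Malat1. Neat1 and the called genes of a list were added after their values were seen.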

Additional observations from a re-analysis of the deposited data

How the results depend on the processing

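No paired analysis was possible because there is 1 group and no pair of groups to share replicate numbers. Detection of 9 of 10 members became 5 at a minimum of 5 TPM and stayed at 9 without either replicate. It was 7 by the read-based table, where the mean TPM of every member was lower, and 10 both by expected counts and after rescaling to protein-coding genes. The 3 members at 10 TPM or more became 7 after rescaling to protein-coding genes, which raises every level by construction, and ranged from 3 to 5 without 1 replicate. The Dusp1 level of 109 TPM was 378 after rescaling and 322 in CPM, both other scales by construction, and 62.1 to 155 without 1 replicate. Its share of the members' level was 41.9% to 57.5% without 1 replicate. The Dusp1-202 share of 75.4% was 96.7% of read-based TPM and 97.4% of read-based estimated counts, and 72.2% to 78.6% without 1 replicate. The cause was not tested. The 3 members called between replicates became 9 with no fold minimum and 2 at a coefficient of variation of 0.2. The 735 genes called became 7505 with no fold minimum and 138 at 0.2, both by construction of the test. Of the 7 alternatives for the replicate difference, those that change the filter or the test leave a member's ratio as it is by construction, and the scalings shift all ratios alike. With read-based counts the log2 ratio was 1.25 for Dusp1 and 1.68 for Dusp5. With 2 libraries of 1 group, depth limits Dusp10 most, at 135 and 110 counts, and no level can be set against another treatment.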
